A study of Mus musculus with 20 samples.

Results

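Bcl11a and Bcl11b are paralogous zinc finger transcription factor genes, also known as Ctip1 and Ctip2. They were followed here through 20 RNA libraries of mouse subcerebral projection neurons, made on postnatal day 1. Such neurons sit in the deep cortex and send their axons to the brainstem and spinal cord. Both genes were found by matching the gene identifiers of the deposited count table to symbols, and they are 2 of the 55487 genes in that table. Some libraries held RNA of neuronal cell bodies (somata) from the cortex. The others held RNA of growth cones, which lead the advancing axon, from brainstem and spinal cord. In each compartment 5 libraries were labelled WT and 5 were labelled Bcl11b KO, and the study calls the latter Bcl11b-null. The labels name neither the allele nor the exons it removes, and they do not say whether a library pooled animals or how growth cones were isolated. Where libraries are separate only by label, p-values measure the spread between these libraries, which may be technical.

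Proteins of the Bcl11 family bind DNA through C2H2 zinc fingers and recruit chromatin complexes. Both are known as subunits of the BAF (SWI/SNF) remodelling complex, and both bind the NuRD deacetylase complex and nuclear receptors of the COUP-TF group. In cortex, Bcl11b is the classical marker of subcerebral projection neurons and is required for their axons to reach the spinal cord. Bcl11a is expressed more broadly in cortical projection neurons and takes part in setting deep-layer identity. Outside the brain, Bcl11b is known for T cell commitment and Bcl11a for silencing of fetal haemoglobin genes.

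Bcl11a (ENSMUSG00000000861.15) lies on the plus strand of chromosome 11 at chr11:24078056-24174123 (GRCm38), with 13175 exonic bases in 7 separate blocks. Its paralog Bcl11b (ENSMUSG00000048251.15) is transcribed from the minus strand of chromosome 12, at chr12:107910403-108003602, with 8111 exonic bases in 4 blocks. The reads of a gene were summed over all of these bases, so the table does not show which exons were covered, and counts inside and outside a deleted part cannot be told apart. The last Bcl11b block, which holds most of the coding sequence and the 3′ UTR, makes up 86.5% of its exonic bases. In Bcl11a, 42.4% of the exonic bases lie in a block that includes a retained-intron transcript.

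The sequences bear on whether counts of one paralog could have been taken for the other. The longest coding sequences of GENCODE M21, of 2508 bases in Bcl11a and 2655 in Bcl11b, were 70.2% identical over 2450 aligned bases. The longest run of identical bases was 23 bases long, at coding positions 2440 to 2462 in Bcl11a and 2572 to 2594 in Bcl11b. It is shown in capitals with 20 bases on either side, 5′ to 3′ on the coding strand.
Bcl11a: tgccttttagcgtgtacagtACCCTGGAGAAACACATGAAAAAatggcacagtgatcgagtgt
Bcl11b: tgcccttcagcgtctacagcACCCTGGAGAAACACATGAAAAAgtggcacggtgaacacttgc

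The first coding exon, which opens with the start codon, shows how alike the genes are elsewhere. It is chr11:24078391-24078445 in Bcl11a (55 bases, plus strand) and chr12:108003086-108003143 in Bcl11b (58 bases, minus strand). Capitals mark the 16 of the first 55 bases that differ.
Bcl11a: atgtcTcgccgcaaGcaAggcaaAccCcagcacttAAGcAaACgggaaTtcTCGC
Bcl11b: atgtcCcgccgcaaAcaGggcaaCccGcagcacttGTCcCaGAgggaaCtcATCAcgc

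Of all 50-base stretches of the exons, 0 were shared between the paralogs. Bcl11a shared 1.68% of its 50-base stretches with another gene, all with 4930538E20Rik, an antisense transcript that overlaps 316 of its exonic bases and held 22 counts over all 20 libraries. Bcl11b shared 0.270% with 5 other genes. The sources used here do not state the use of strand in counting, so reads of Bcl11a and its antisense partner cannot be told apart.

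The libraries held 18962308 to 51205154 counts and 17433 to 20084 genes with at least 1 count. Total counts were 18962308 to 36059112 in somata labelled WT and 35243688 to 51205154 in somata labelled KO. Growth cone libraries held 21657575 to 29323028. Bcl11a had 2532 to 10121 counts per library and Bcl11b 1684 to 53663, so counting error is small beside the spread between libraries. Levels below are counts relative to library size (CPM), scaled by TMM over all 20 libraries, and levels of the 2 genes are set side by side only per kb of exonic length. The libraries carried the markers of their label in part. All 9 matched markers of subcerebral projection neurons were above 3 counts in every library, and their summed level was 1912 to 2239 CPM of the library total in somata labelled WT and 1645 to 1833 in somata labelled KO. It was 890 to 1177 CPM in growth cones labelled WT and 855 to 1132 in growth cones labelled KO.

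Somata held far more Bcl11b than growth cones, and Bcl11a varied little by comparison. Per kb, Bcl11b was at 86.4 ± 16.0 CPM (SD, n = 5) in somata labelled WT and 142 ± 7.0 in those labelled KO. Growth cones held 12.5 ± 2.39 CPM per kb with the WT label and 12.6 ± 4.32 with the KO label. Bcl11a was at 10.8 ± 0.604 CPM per kb in somata labelled WT, the lowest of its 4 groups. Its other groups lay close together, at 16.4 ± 1.61 in somata labelled KO, 16.5 ± 2.74 in growth cones labelled WT and 15.3 ± 1.38 in growth cones labelled KO.

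For Bcl11b the order of the groups was somata labelled KO, somata labelled WT, then both growth cone groups, and only the growth cone groups overlapped each other. For Bcl11a only the somata labelled WT were separate, and the other 3 groups overlapped one another. Ranked by level per kb among 17645 genes, Bcl11b stood at the 96.3 and 98.2 percentiles in somata labelled WT and KO and at the 77.4 percentile in both growth cone groups. Bcl11a stood at 73.6 in somata labelled WT and between 80.3 and 81.4 in the other groups.

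**Figure D1:**
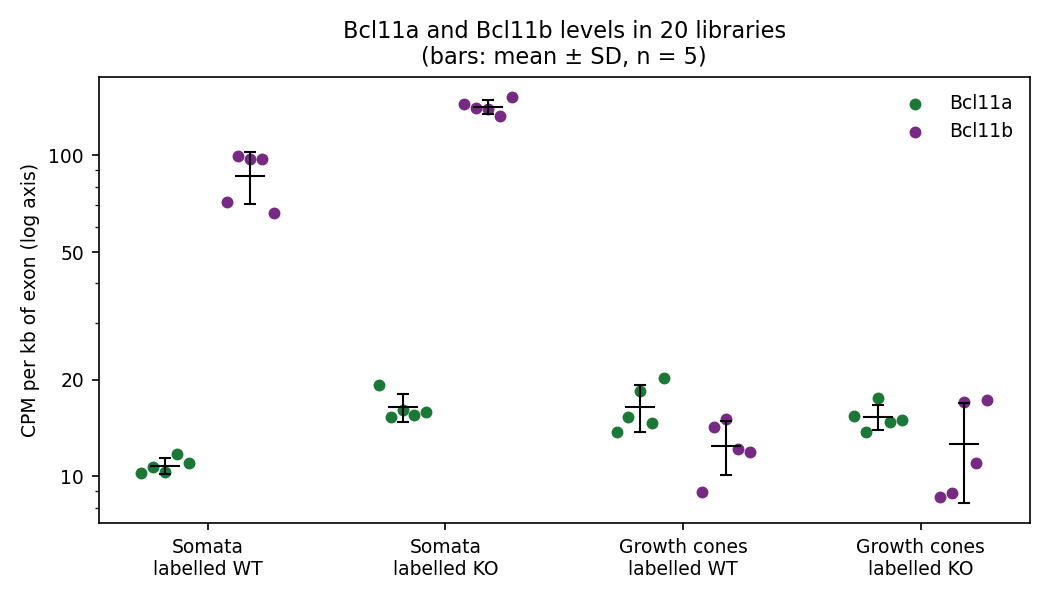
Level of Bcl11a (green) and Bcl11b (purple) in CPM per kb of exonic length, on a log axis, for the 20 libraries by compartment and label. Each point is 1 library and bars give the mean ± SD of 5 libraries. Bcl11b lies far above Bcl11a in somata and, on average, somewhat below it in growth cones.

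Because both genes were read from the same library, their ratio does not depend on how libraries were scaled. The ratio of Bcl11b to Bcl11a per kb in somata labelled WT was 7.03, 9.31, 9.39, 8.29 and 6.0 in libraries 12, 14, 22, 25 and 26, with a mean of 8.01 ± 1.47. In somata labelled KO it was 7.54, 9.20, 8.61, 8.59 and 9.54 in libraries 14, 15, 22, 25 and 26, with a mean of 8.70 ± 0.763. The soma groups overlapped in this ratio, although neither gene alone overlapped between them.

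In growth cones labelled WT the ratio was 0.650, 0.932, 0.816, 0.825 and 0.591 in libraries 7 to 11, with a mean of 0.763 ± 0.139. In growth cones labelled KO it was 0.560, 0.647, 0.975, 0.743 and 1.16, with a mean of 0.816 ± 0.245. Bcl11a was thus the more abundant paralog per kb in 9 of the 10 growth cone libraries, and the exception was library 11 labelled KO. Ratios in somata and growth cones did not overlap. The length of Bcl11a matters to this comparison: with the length of the longest coding transcript of each gene, the means were 3.64, 3.95, 0.347 and 0.371 in the same order of groups. The highest growth cone ratio was then 0.525, in library 11 labelled KO, so that library was no longer an exception.

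**Figure D2:**
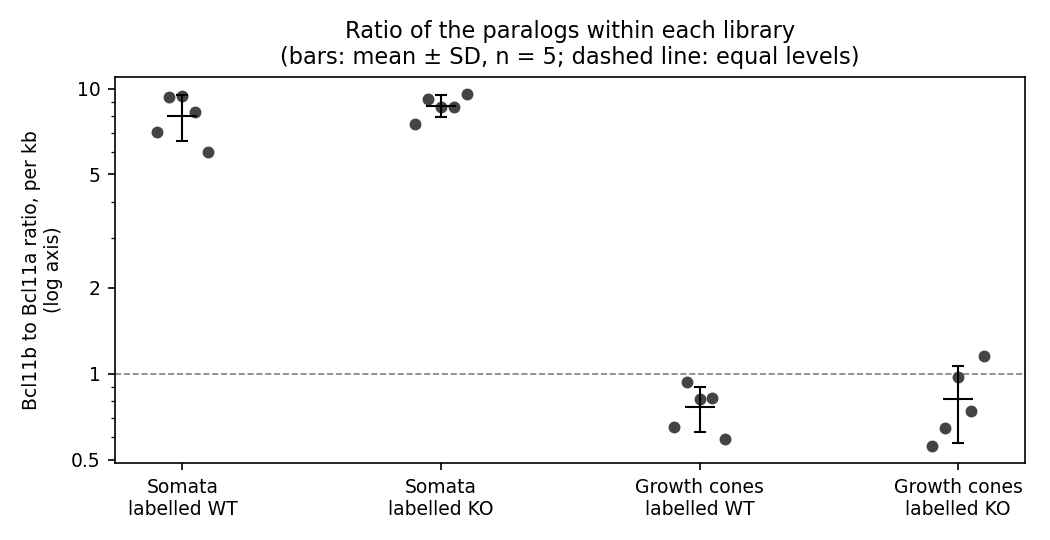
Ratio of Bcl11b to Bcl11a per kb of exonic length within each library, on a log axis, with the mean ± SD of 5 libraries per group. The dashed line marks equal levels. Soma libraries lie between 6.0 and 9.54, and growth cone libraries between 0.560 and 1.16.

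The first comparison was of somata labelled KO with somata labelled WT, and Bcl11b is the targeted gene. Its level went against the label. Somata of both labels held Bcl11b, at 537 to 806 CPM (WT) and 1080 to 1232 CPM (KO). Whichever group was null therefore still had Bcl11b counts. A null allele whose transcript is still made was not tested as their source. Whether the soma labels were also exchanged cannot be told from these counts, so differences between the label groups are given by label only. Bcl11b in somata labelled WT was at 583, 806, 789, 789 and 537 CPM in libraries 12, 14, 22, 25 and 26. In somata labelled KO it was at 1177, 1143, 1129, 1080 and 1232 CPM in libraries 14, 15, 22, 25 and 26. Every library labelled KO was above every library labelled WT, with libraries 12 and 26 lowest among those labelled WT. The log2 fold change was 0.71 ± 0.12 (SE; 95% confidence interval 0.46 to 0.97; edgeR quasi-likelihood test, Benjamini-Hochberg adjusted p = 0.0153), or 1.64-fold higher.

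Bcl11a moved the same way. In somata labelled WT it was at 135, 141, 137, 155 and 145 CPM in libraries 12, 14, 22, 25 and 26, and in somata labelled KO at 254, 202, 213, 204 and 210 CPM in libraries 14, 15, 22, 25 and 26. The groups did not overlap, and library 14 labelled KO stood above the rest of its group. The log2 fold change was 0.60 ± 0.091 (SE; 95% confidence interval 0.40 to 0.80; edgeR adjusted p = 0.00807), or 1.52-fold higher. Across all 14911 genes tested, 0.731% passed the same threshold, 0.416% as higher and 0.315% as lower, and the median of them all was -0.0030 on the log2 scale. Groups did not overlap in 3.17% of genes. At an unadjusted p under 0.05 stood 8.57% of genes, and DESeq2 called 2.70%. For each of the paralogs alone, an exact permutation test of log2 CPM, two-sided, gave p = 0.00794, the smallest p that 252 regroupings allow, and 0.0127 after adjustment over 8 such tests.

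The somata labelled KO were also sequenced more deeply, as given above, and the part of depth in the Bcl11a and Bcl11b differences was not tested. The number of detected genes is another measure than depth. When it entered the model as a covariate, Bcl11a differed by 0.54 (edgeR adjusted p = 0.0437) and Bcl11b by 0.63 (adjusted p = 0.0591). In a fit of all 20 libraries Bcl11a differed by 0.60 (adjusted p = 0.0377) and Bcl11b by 0.72 (adjusted p = 0.279). All 10 fits that left out 1 soma library kept both calls, with log2 fold changes of 0.54 to 0.63 for Bcl11a and 0.63 to 0.77 for Bcl11b. Without library 14 labelled KO, the high one, Bcl11a differed by 0.54. With the library number as a replicate block neither call was kept, as given in the closing section.

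The genes that work with the Bcl11 factors are counted here beside the shares over all genes given above, 0.731% in edgeR, 8.57% at an unadjusted p under 0.05 and 2.70% in DESeq2. Of the 28 genes of the BAF complex 1 rose (3.57%), with a median log2 fold change of 0.031. An unadjusted p under 0.05 was found for 3 of them, and DESeq2 called 1. This was Smarca2, an ATPase of the complex, at 233 ± 33.7 CPM in somata labelled WT and 338 ± 23.7 in somata labelled KO (log2 fold change 0.53 ± 0.11, edgeR adjusted p = 0.0457). Leaving out 1 library ended this call in 9 of 10 fits, and 4 of 9 other settings ended it too. Of 15 genes of the NuRD complex, with a median of 0.12, 0 passed the edgeR test, 5 had an unadjusted p under 0.05 and DESeq2 called 3. Of 6 other partners tested, among them the COUP-TF gene Nr2f1, 0 passed and 1 had an unadjusted p under 0.05, and DESeq2 called 0.

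Of 12 transcription factor genes of the cortical identity circuit, 1 rose, and the median log2 fold change was 0.17. An unadjusted p under 0.05 was found for 6 of the 12, and DESeq2 called 3. Tle4, a corepressor and marker of corticothalamic neurons, was at 50.2 ± 16.7 CPM in somata labelled WT and 175 ± 42.2 in somata labelled KO (log2 fold change 1.80 ± 0.26, edgeR adjusted p = 0.00693). Fezf2, which acts upstream of Bcl11b in these neurons, was at 304 and 362 CPM and did not pass. Of 6 tested genes reported downstream of Bcl11 factors 1 rose, with a median of 0.90, 3 had an unadjusted p under 0.05 and DESeq2 called 1. Cdkn1a, which encodes the cell cycle inhibitor p21, was at 5.61 ± 1.31 CPM in somata labelled WT and 17.5 ± 2.30 in somata labelled KO (log2 fold change 1.64 ± 0.26, edgeR adjusted p = 0.0101).

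Between the soma groups, of 13 glia and vessel markers 0 passed by edgeR or DESeq2, and 0 had an unadjusted p under 0.05. Their median log2 fold change was 0.74, and 11 of the 13 values were above 0. Their summed level was 63.2 to 175 CPM with the WT label and 90.2 to 244 with the KO label, and 0 of the 13 were at 0 in every library of either group. The hindbrain and spinal cord markers summed to at most 0.212 CPM in somata. Of the 9 markers of subcerebral projection neurons tested, 3 fell and 1 rose, which is 44.4% against 0.731% of all genes, and DESeq2 called 5. Markers of glutamatergic cortical neurons summed to 703 to 950 CPM with the WT label and 1004 to 1202 with the KO label, so the groups did not overlap. Of these 4 genes 1 rose in edgeR and DESeq2 called 2. Their median log2 fold change was -0.23, with 2 of the 4 values above 0, so the sum does not stand for the list. The gene that rose, Neurod6, a transcription factor gene of cortical projection neurons named after its values were seen, was at 729 ± 79.9 and 1033 ± 109 CPM (edgeR adjusted p = 0.0491). The interneuron markers summed to 116 to 187 CPM with the WT label and 383 to 531 with the KO label, and 1 of 8 tested rose. That 1 was Npy, a neuropeptide precursor, named after its values were seen, with 113 ± 26.6 against 472 ± 48.4 CPM. Over the 8 interneuron markers tested, the median log2 fold change was 0.20 and 5 values were above 0. Of the other markers in this list, Gad1 was at 4.33 and 5.64 CPM, Gad2 at 8.72 and 3.94, and Dlx2 at 6.99 and 4.54, with the WT and KO label. The part of cell composition in the Bcl11a and Bcl11b differences was not tested.

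The second comparison was of growth cones labelled KO with growth cones labelled WT. Neither paralog differed past the threshold. Bcl11b in growth cones labelled WT was at 72.4, 116, 122, 98.5 and 96.9 CPM in libraries 7 to 11, and in growth cones labelled KO at 69.9, 72.2, 139, 89.4 and 141 CPM. The groups overlapped, as they did in all but 0.532% of genes, and library 7 was the lowest of both groups. The log2 fold change was 0.029 ± 0.25 (SE; 95% confidence interval -0.51 to 0.57; edgeR adjusted p = 0.999). The Bcl11b counts therefore do not separate the growth cone labels. The interval includes a fall to 0.703 of the WT level and a rise to 1.48 times it.

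Bcl11a in growth cones labelled WT was at 181, 201, 243, 194 and 266 CPM in libraries 7 to 11, and in growth cones labelled KO at 203, 181, 231, 195 and 198 CPM. The groups overlapped, with libraries 9 and 11 labelled WT the highest. The log2 fold change was -0.095 ± 0.15 (SE; 95% confidence interval -0.42 to 0.23; edgeR adjusted p = 0.999). Of the 15419 genes tested in growth cones, 0 passed in edgeR, which is 0% called, while 329 had an unadjusted p under 0.05, 2.13% of those tested, and DESeq2 called 11 (0.0713%). Of the BAF genes 0 passed, 2 had an unadjusted p under 0.05 and DESeq2 called 0. Among the NuRD, other partner, cortical circuit and downstream genes, 0 passed in edgeR or DESeq2 and 0 had an unadjusted p under 0.05.

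**Figure D3:**
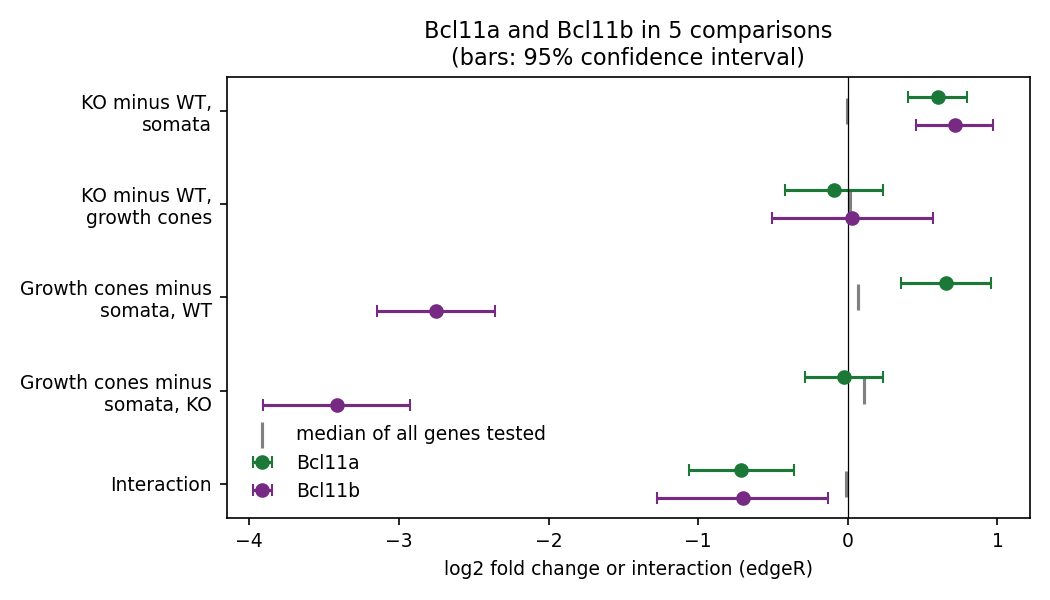
Log2 fold changes of Bcl11a (green) and Bcl11b (purple) in 4 comparisons, and the interaction of label and compartment, from edgeR with 95% confidence intervals. Grey ticks give the median of all genes tested. Both genes lie above 0 in somata labelled KO, and only Bcl11b lies far below 0 in growth cones.

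The third comparison was of growth cones with somata within a label. Growth cone libraries carried numbers 7 to 11 and soma libraries numbers from 12 to 26. RNA input was 0.19 to 3.1 ng for growth cones and 1.8 to 3.1 ng for somata. Compartment, library number and input range therefore cannot be told apart. Levels here are shares of the RNA in each compartment, and in bulk libraries fewer cells of a type and less RNA per cell cannot be told apart. In libraries labelled WT, Bcl11b fell by 2.75 on the log2 scale from somata to growth cones (SE 0.18, 95% confidence interval -3.14 to -2.36; edgeR adjusted p = 6.02e-07), to 14.9% of the soma level. Its highest growth cone library, at 122 CPM, was far below its lowest soma library, at 537 CPM. Bcl11a rose by 0.65 ± 0.14 (95% confidence interval 0.35 to 0.96; edgeR adjusted p = 0.00242), with 181 CPM in its lowest growth cone library and 155 in its highest soma library. Of the 15128 genes tested 42.8% passed, 23.1% as higher and 19.7% as lower in growth cones, and groups did not overlap in 37.9%. Bcl11b lay at the 2.68 percentile of all log2 fold changes and Bcl11a at the 62.3 percentile.

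In libraries labelled KO, Bcl11b fell by 3.42 on the log2 scale from somata to growth cones (SE 0.22, 95% confidence interval -3.91 to -2.93; edgeR adjusted p = 1e-06), to 9.37% of the soma level. The highest growth cone library stood at 141 CPM and the lowest soma library at 1080 CPM. Bcl11a did not differ past the threshold, with a log2 fold change of -0.023 ± 0.12 (95% confidence interval -0.28 to 0.24; edgeR adjusted p = 0.898). Its groups overlapped, at 202 to 254 CPM in somata and 181 to 231 CPM in growth cones. Of the 15410 genes tested 38.6% passed, 21.6% as higher and 17.0% as lower in growth cones, and groups did not overlap in 36.8%.

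Scaling moved all values of the compartment comparison together. Over all genes tested, the median was 0.069 with TMM and 0.28 with upper-quartile scaling in libraries labelled WT, and 0.11 and 0.31 in those labelled KO. Relative to that median, Bcl11a differed by 0.58 in libraries labelled WT and -0.13 in those labelled KO under TMM and upper-quartile scaling alike. Bcl11b differed by -2.82 and by -3.53.

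Whether the label effect differed between compartments was tested by the interaction over all 20 libraries. The interaction, the label effect in growth cones minus that in somata, was -0.71 ± 0.17 for Bcl11a (95% confidence interval -1.06 to -0.36) with an unadjusted p of 0.000417 and an edgeR adjusted p of 0.178. DESeq2 gave -0.70 with an adjusted p of 0.00152. For Bcl11b it was -0.70 ± 0.27 (95% confidence interval -1.27 to -0.13), with an unadjusted p of 0.0186 and an edgeR adjusted p of 0.554. The DESeq2 adjusted p for Bcl11b was 0.322. In edgeR 7 of 17645 genes, 0.0397%, passed, DESeq2 called 262 (1.48%) and 6.98% had an unadjusted p under 0.05. Neither interaction passed in edgeR, so a difference between the compartments in the label effect was not shown by that test.

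Other cell types were represented differently in the compartments. Hindbrain and spinal cord markers, mainly Hox genes, summed to 93.0 to 168 CPM in growth cones labelled WT and 58.3 to 237 in those labelled KO. In somata 4 of the 12 were at 0 in every library labelled WT and 8 in every library labelled KO, Hoxc4 among them in both. Glia and vessel markers summed to 751 to 2508 CPM and 775 to 1901 CPM in growth cones labelled WT and KO. Interneuron markers summed to 727 to 905 CPM in growth cones labelled WT and 705 to 989 in those labelled KO. Striatal markers, of a neuron type known for high Bcl11b, summed to 122 to 264 CPM in somata labelled WT and 374 to 485 in growth cones labelled WT. With the KO label they summed to 135 to 280 CPM in somata and 288 to 464 in growth cones. The part of these cells in the Bcl11a and Bcl11b levels of growth cones was not tested.

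Calls among the chromatin partners of the Bcl11 factors are read against the 42.8% of all genes called between compartments with the WT label and the 38.6% called with the KO label. Of the 28 BAF genes, 5 rose and 7 fell in growth cones in libraries labelled WT, with a median of -0.19, and 5 rose and 7 fell in those labelled KO, with a median of -0.22. The called share, 42.9% with either label, was near that of all genes. With upper-quartile scaling 7 rose and 6 fell in libraries labelled WT. The lowest p belonged to Bcl7c, an accessory subunit, at 44.6 ± 10.01 CPM in somata and 195 ± 53.8 in growth cones labelled WT (log2 fold change 2.17 ± 0.23, edgeR adjusted p = 1.94e-05). Smarcd3 rose by 1.22 and Arid1a, a DNA-binding subunit, by 1.80. The core scaffold subunit Smarcc1 fell by 1.76 and Ss18l1, the subunit of the neuronal complex also called CREST, fell by 2.04 on the log2 scale. In libraries labelled KO the 5 lowest p-values were those of Bcl7c, Smarcc1, Arid1a, Smarcd3 and Pbrm1, and the polybromo subunit Pbrm1 fell by 1.24.

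Of the 15 NuRD genes, 7 rose and 4 fell in libraries labelled WT, and 7 rose and 5 fell in those labelled KO, or 73.3% and 80.0% called, against 42.8% and 38.6% of all genes. The middle value of the list was that of Mta3 with either label (0.40 and -0.45), which passed with neither (edgeR adjusted p = 0.517 and 0.689). Cdk2ap1, a small accessory subunit, was at 26.2 ± 4.91 CPM in somata and 200.4 ± 65.0 in growth cones labelled WT (log2 fold change 2.98 ± 0.24, edgeR adjusted p = 2.71e-06). The methyl-CpG domain subunit Mbd3 rose by 1.60. The histone chaperones Rbbp4 and Rbbp7 fell by 1.68 and by 1.09 on the log2 scale, and the deacetylase Hdac2 fell by 0.80. In libraries labelled KO, Chd5, a chromodomain remodeller, rose by 1.69.

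Of 7 other partners, 3 rose and 3 fell with either label, with medians of -1.03 (WT) and -0.28 (KO), so 85.7% were called, against 42.8% and 38.6% of all genes. The COUP-TF gene Nr2f1 was at 10.1 ± 2.91 CPM in somata and 174 ± 47.2 in growth cones labelled WT (log2 fold change 4.14 ± 0.28, edgeR adjusted p = 6.92e-07). Its relatives Nr2f2 and Nr2f6 rose by 5.45 and 1.68. Nr2f2 was near the floor in somata labelled WT, at 1.30 ± 2.04 CPM, against 55.7 ± 25.2 in growth cones labelled WT. The histone demethylase gene Kdm1a fell by 1.76 and the deacetylase gene Sirt1 fell by 1.74 on the log2 scale. In libraries labelled KO, Suv39h1, a histone methyltransferase gene, fell by 1.07 on the log2 scale.

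Of the 12 cortical circuit genes, 3 rose and 4 fell in libraries labelled WT, and 3 rose and 6 fell in those labelled KO, with medians of -0.30 and -0.91. The called shares were 58.3% and 75.0%, against 42.8% and 38.6% of all genes. Sox5, which sets the timing of deep-layer neuron production, fell by 3.23 with the WT label and fell by 4.37 with the KO label. Fezf2 fell by 1.53 and Ldb2 fell by 2.63 in libraries labelled WT. Lmo4, a LIM-domain cofactor, was at 40.8 ± 4.95 CPM in somata and 414 ± 74.3 in growth cones labelled WT, a log2 fold change of 3.39 ± 0.16 (edgeR adjusted p = 7.55e-08). Cux1 rose by 1.38, and Tle4 fell by 1.13 with the KO label. Of 6 downstream genes tested, 2 rose and 1 fell in libraries labelled WT, with a median of -0.34. Cdkn1a rose by 3.56 and the axon guidance ligand gene Sema3c fell by 2.95. Bdnf rose by 3.42, from near the floor in somata labelled WT (0.97 ± 0.70 CPM) to 10.1 ± 2.80 CPM in growth cones labelled WT. With the KO label 1 rose and 2 fell, with a median of -0.54, and Frzb, a secreted Wnt antagonist gene, fell by 2.78. With either label 3 of 6 were called, against the same 42.8% and 38.6%.

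In the interaction, 0 genes of these 5 lists passed in edgeR. Unadjusted p-values under 0.05 were found for 2 BAF, 0 NuRD, 0 other partner, 3 cortical circuit and 1 downstream genes, and DESeq2 called 1, 0, 0, 2 and 1 of them. Over all genes the shares were 6.98% and 1.48%, and 2 of 28 BAF genes is near the first.

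**Figure D4:**
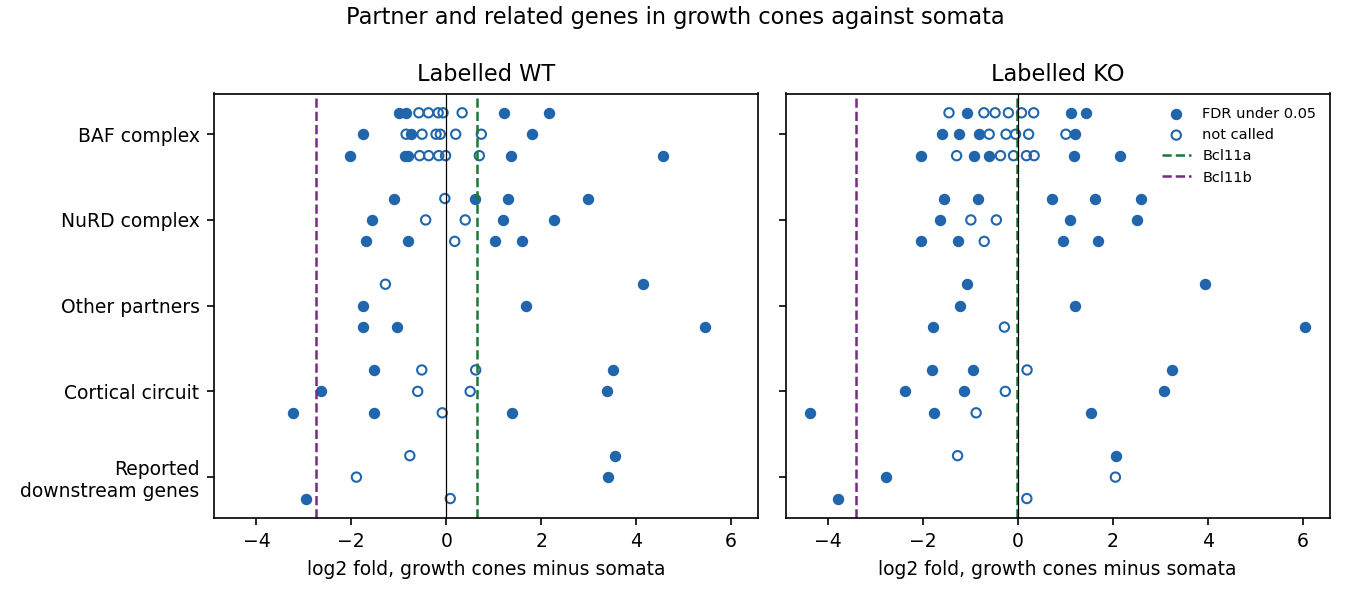
Log2 fold changes of growth cones against somata for the members of 5 gene lists, in libraries labelled WT (left) and KO (right). Filled points passed an edgeR FDR of 0.05, and dashed lines give Bcl11a (green) and Bcl11b (purple). Each list has called members on both sides of 0, and only Sox5 lies below Bcl11b in the cortical circuit list.

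The patterns of the paralogs over the 20 libraries were compared with those of all other genes. Likeness was measured by the root-mean-square difference of log2 CPM, each gene centred on its own mean, among 11341 genes with at least 5 CPM on average. Bcl11a and Bcl11b differed by 1.73 on this measure, and Bcl11b ranked 8841 of 11341 genes in closeness to Bcl11a, where the median over genes was 1.00. In closeness to Bcl11b, Bcl11a ranked 5540, with a median of 1.75. The genes nearest to Bcl11a were Efnb3, an ephrin ligand gene (0.220), Chst1 (0.231), the RNA-binding protein gene Celf4 (0.234), the corepressor gene Ctbp1 (0.238) and Ralyl (0.243). Efnb3 stood at 86.4 and 122 CPM in somata labelled WT and KO and at 124 and 135 CPM in growth cones. Ralyl stood at 119 and 173 CPM in somata and at 211 and 180 CPM in growth cones.

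The genes nearest to Bcl11b were Spock1, a proteoglycan gene (0.413), the ATPase gene Vcp (0.421), the proteasome subunit gene Psmd2 (0.439), the tubulin gene Tubb4a (0.444) and the transcription factor gene Mef2c (0.448). Spock1 stood at 202 and 302 CPM in somata labelled WT and KO and at 27.6 and 30.9 CPM in growth cones. Mef2c stood at 2401 and 2563 CPM in somata and at 217 and 230 CPM in growth cones. Their lower level in growth cones follows from their choice by likeness to Bcl11b. The soma levels of Efnb3, Ralyl and Spock1 by label are likewise no separate result, since likeness used the same libraries. No p is attached to likeness, since the points share libraries.

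Neighbouring genes were taken as the nearest with at least 1 CPM and those overlapping a paralog, and they did not all move with it. Gm12063 is a long noncoding RNA gene that ends 689 bases before the annotated Bcl11a start, on the same strand. RefSeq places the Bcl11a start earlier, at base 24076564 of chromosome 11 (GRCm38), inside the span of Gm12063. Gm12063 held 266 counts in all in somata labelled WT and 673 in somata labelled KO (log2 fold change 0.97 ± 0.58, edgeR adjusted p = 0.779). It held 46 counts in growth cones labelled WT, all in 1 library, and 1 count in those labelled KO. Gm12064 and 4930538E20Rik lie within the Bcl11a body on the other strand and held 77 and 22 counts in all libraries. On the other side of Bcl11a the nearest counted gene, 5730522E02Rik, lies 1428640 bases away and did not pass between the soma groups (adjusted p = 0.993).

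Near Bcl11b, Setd3, an actin histidine methyltransferase gene 102829 bases away, was at 153 ± 23.0 CPM in somata labelled WT and 148 ± 8.84 in somata labelled KO (edgeR adjusted p = 0.990). Vrk1, a kinase gene and the nearest counted gene on the other side at 1832977 bases, was at 79.0 ± 4.04 and 123 ± 19.5 CPM (log2 fold change 0.63 ± 0.12, edgeR adjusted p = 0.0378). Vrk1 fell by 2.04 from somata to growth cones in libraries labelled WT, and Setd3 did not pass there (adjusted p = 0.661).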

How the data were processed

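The authors deposited 1 table of raw read counts per gene, unscaled, for all 20 libraries, with featureCounts columns per its header. The table also holds the exonic length of each gene in bases. Trimmomatic 0.39, STAR 2.7.1a and featureCounts 1.5.0 are named in the submitters' processing notes. Those notes name GRCm39, but the coordinates in the table are those of GRCm38, and 54435 of 55487 exon lists (98.1%) equal GENCODE M21, which gave symbols for 55141 genes. All coordinates given are GRCm38, from that table. Per the labels' protocols, 1.8 to 3.1 ng of soma RNA and 0.19 to 3.1 ng of growth cone RNA was amplified with SMART-seq v4. No molecular identifiers are named. The use of strand and the handling of multiply mapped reads are not given in the sources used here.

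Genes were filtered with filterByExpr (minimum count 10), scaled by TMM and tested over all genes with edgeR 4.0.16 (quasi-likelihood, Benjamini-Hochberg, FDR 0.05) in R 4.3.3, with the compared groups in each fit and all 20 libraries for the interaction. SE come from the F statistics. Alternatives used DESeq2 1.42.0, limma 3.58.1 (voom), other scalings and filters, a detected-genes covariate, a replicate block, all 20 libraries and leave-one-out. Scripts were tested on simulated data. Permutation tests used log2(CPM + 0.5). Bcl11a and Bcl11b and the 11 gene lists (5 of partner and related genes, 6 of cell markers) were chosen with earlier results of these data known. List genes named are at most 5 per list and comparison, by lowest p under FDR 0.05. Others are given by name or level only, except Mta3, which was named as the middle value of its list. Named too are the 5 genes most alike to each paralog (at least 5 CPM) and the neighbours with at least 1 CPM. One marker symbol was not matched. Groups are called by label, since the Bcl11b counts go against the soma label.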

Additional observations from a re-analysis of the deposited data

Results flagged for a closer look

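In somata labelled KO, library 14 had a Bcl11a level of 254 CPM, and the other 4 libraries lay between 202 and 213 CPM. The gap to the next library was 0.786 of the whole range of the group, above Dixon's limit for 5 values. Its Bcl11b level, 1177 CPM, lay within its group. Chance flags about 1 in 20 groups, and 12 groups of values were checked.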

How the results depend on the processing

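The library numbers follow Exp in the titles and may pair libraries, but same-numbered libraries did not deviate together in every pair. The main and permutation tests did not use the numbers. Their correlations across genes were 0.0173 to 0.0988 in growth cones, where all 5 libraries labelled KO matched their own number best, and -0.0171 to 0.122 in somata, where 2 of 4 did. With the number as a replicate block, Bcl11a differed between soma groups by 0.61 (adjusted p = 0.107) and Bcl11b by 0.68 (adjusted p = 0.162). Genes called fell from 109 to 34 in somata and from 7 to 0 in the interaction, and Bcl11b in growth cones was at -0.016. The block also left 0 of the BAF and 0 of the downstream genes called in somata, so the calls of Smarca2 and Cdkn1a were lost. Growth cones and somata share no numbers, so no block was fitted between them.

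The Bcl11b soma call was also lost with detected genes as a covariate (0.63) and in the fit of all 20 libraries (0.72), and the cause was not tested. The Bcl11a interaction passed under DESeq2 (-0.70). DESeq2 called 402 genes in somata, 11 in growth cones and 262 in the interaction. The fit of all 20 libraries called 30 in somata and 7 in growth cones, and the covariate left 4 in the interaction. Without 1 library, 67 to 107 genes were called in somata, 0 in growth cones and 5 to 12 in the interaction. Somata gave 68 without WT library 22 and 67 without KO library 22, and the interaction 12 and 11 without growth cone library 7 labelled WT or KO.

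Some small differences changed sign. Bcl11b between growth cone labels was -0.018 with limma-voom, -0.029 in the permutation test and -0.11 to 0.15 without 1 library (-0.068, -0.097 and -0.11 without WT library 7, KO library 9 and KO library 11). Bcl11a in growth cones against somata labelled KO was 0.0012 with DESeq2 size factors and with DESeq2, 0.17 with upper-quartile scaling, 0.071 with library totals, 0.023 with the covariate and -0.10 to 0.026 without 1 library (0.026 without soma library 14, 0.0019 without growth cone library 8). Its adjusted p was at least 0.284 under these settings. Bcl11b and, with the WT label, Bcl11a kept direction and call in growth cones against somata under every setting run. The length chosen for Bcl11a moved the ratio of the paralogs to 3.64, 3.95, 0.347 and 0.371. Alternatives for the ratio and the lists were chosen after seeing the data. Intervals cover the spread between libraries, and 5 libraries per group limit their precision.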
